A study of Rattus norvegicus with 16 samples.

Results

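The levels of 10 developmental genes of the liver were followed in rat pups at 21 days of age, at weaning. They are the fetal liver genes Afp, Igf2, H19, Gpc3 and Dlk1, and the genes Igf1, Igfals, Ghr, Igfbp1 and Igfbp2 of the growth hormone and insulin-like growth factor (IGF) axis. Their probes were found by RefSeq transcript number: 10 genes with 14 probes, out of 15154 genes with a symbol and 30367 probes on the array. Of these genes, 9 passed the filter on dim signals, and Dlk1 did not.

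Livers came from male Sprague-Dawley pups that stayed with their own mothers, and the dams were dosed through gestation and nursing. In the 0.5M and M groups the dams received methylmercury mixed with polychlorinated biphenyls and organochlorine pesticides in corn oil, at 0.5 and 1 mg/kg/day. In the AhR group they received agonists of the aryl hydrocarbon receptor (non-ortho polychlorinated biphenyls, dibenzodioxins and dibenzofurans) at 1.8 ng/kg/day in dioxin equivalents, and in the C group corn oil alone. Each group had 8 pups on 4 dual-colour Agilent arrays, as the RNA of pups was combined by chance in pools of 2, and litters are not given in the labels. P-values therefore measure the spread between these pools, which may share litters. Liver RNA carried the dye Cy5 on all 16 arrays, and a universal rat RNA from 14 cell lines carried Cy3, with no dye swap.

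The rodent liver is a blood-forming and fast-growing organ before birth and becomes a metabolic organ around weaning. Afp, H19 and Igf2 are abundant in fetal hepatocytes and are shut down in the first weeks of life, while Ghr, Igf1 and Igfals come on as the liver starts to answer growth hormone. Growth hormone binds its receptor on hepatocytes, the kinase JAK2 and the factor STAT5B carry the signal, and the liver releases IGF-1 bound to a binding protein and the acid-labile subunit. In a whole-liver RNA sample, fewer cells of a type and less RNA per cell cannot be told apart.

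The promoters of 3 genes are shown that varied much between arrays: Afp and Igf2, which are switched off after birth, and Igfbp1, which insulin represses. Each run is the 250 bases before the annotated start, read 5′ to 3′ on the strand of the gene, from RefSeq on build GRCr8. Afp lies on the minus strand (chr14:17875646-17875895), Igf2 on the minus strand (chr1:207250476-207250725, the first of its windows in the table) and Igfbp1 on the plus strand (chr14:86261027-86261276). Capitals mark matches to 3 motifs. GTTAAT is one side of the site of the hepatocyte factor HNF1. The TATA box was searched as TATAAA. The core of an insulin response element was searched as CAAAACA.
Afp: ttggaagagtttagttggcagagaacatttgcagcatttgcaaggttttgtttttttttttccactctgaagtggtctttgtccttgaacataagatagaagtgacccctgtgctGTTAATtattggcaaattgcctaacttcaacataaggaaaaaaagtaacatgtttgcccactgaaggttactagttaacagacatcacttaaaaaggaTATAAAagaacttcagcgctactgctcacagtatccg
Igf2: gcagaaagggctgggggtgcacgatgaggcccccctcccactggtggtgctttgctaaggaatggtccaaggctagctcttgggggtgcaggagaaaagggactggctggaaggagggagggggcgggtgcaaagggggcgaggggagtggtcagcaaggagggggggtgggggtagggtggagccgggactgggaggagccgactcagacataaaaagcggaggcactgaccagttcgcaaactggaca
Igfbp1: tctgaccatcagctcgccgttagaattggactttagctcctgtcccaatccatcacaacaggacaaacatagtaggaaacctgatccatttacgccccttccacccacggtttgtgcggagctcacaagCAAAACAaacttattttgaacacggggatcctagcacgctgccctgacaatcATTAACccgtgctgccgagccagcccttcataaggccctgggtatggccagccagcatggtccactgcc
In the Afp promoter the HNF1 motif lay 135 to 130 bases before the start and the TATA box 37 to 32 bases before it. In Igfbp1 the insulin response core lay 121 to 115 bases before the start, and an HNF1 motif lay on the other strand at 69 to 64 bases. The same core lay 67 to 61 bases before the start of Igf1. HNF1 is a known activator of Afp and Igfbp1, and FOXO factors, which insulin turns off, bind the insulin response element of Igfbp1. Both strands were searched, also for the STAT5 motif TTCNNNGAA, and no matches overlapped. Both Igf2 windows of the table and the windows of Gpc3, Dlk1, Igfals, Ghr and Igfbp2 held none of these letters. H19 has no entry in the promoter table. Of all 33469 promoter windows of this length, 6.45% held the HNF1 motif, 12.9% the TATA box, 5.46% the insulin response core and 7.67% the STAT5 motif.

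Values below are log2 ratios of Cy5 over Cy3 after background correction and loess normalization, so 0 means a signal equal to that of the common RNA after scaling. Levels of different genes were not set against each other. The software marked 13006 to 15686 probes per array as well above background in Cy5 on slide 2 and 7082 to 13824 on slide 1, and each slide held 2 arrays of every group. Marker sums below are of Cy5 levels after loess and scaling of the arrays to a common brightness, and not of raw scanner signals. All 10 hepatocyte markers passed the filter, with a sum of 945861 on M 1, 880373 on AhR 1 and 589771 to 743135 on the other 14 arrays. In raw Cy5 M 1 and AhR 1 were dim arrays, with 7082 and 8828 probes well above background. AhR 1 also had the highest Afp, H19 and Igfbp1 ratios of the 16 arrays, and the part of this in the results was not tested. The arrays M 2 and 0.5M 4 also held skeletal muscle transcripts: the summed Cy5 level of the 10 muscle markers that passed, of 24 listed, was 60552 and 69844 there and 909 to 2103 on the other 14. Stellate cell and fibroblast markers (11 of 14) summed to 32360 and 21636 on these arrays, against 9349 to 11958 elsewhere. The 7 erythroid markers that passed, of 12, summed to 42807 to 52234 in 0.5M, 34982 to 70713 in M, 43146 to 65630 in AhR and 38531 to 54476 in C. The 4 exocrine pancreas markers that passed, of 14, summed to 1899 on M 1, 854 on AhR 2 and 390 to 568 elsewhere. The 3 fat markers that passed, of 9, summed to 2214 on C 2 and 1417 to 2144 elsewhere, so this sum hardly sets C 2 apart. Traces of other tissues had been seen earlier on 5 arrays (M 1, M 2, 0.5M 4, AhR 2 and C 2), and the larger moves without them are given with the genes.

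No fetal or IGF axis gene passed the test in any comparison of groups. With limma and Benjamini-Hochberg adjustment over 13146 transcripts, 0 of 9 genes were called in M against C, where 0.319% of all transcripts were called. The count was also 0 in 0.5M against C (0.0152% of all transcripts), in AhR against C (0.00761%), in M against 0.5M (0.0152%) and in the F test over the 4 groups (0.175%). At an unadjusted p under 0.05 stood 1 of 9 genes in M against C (Igfals; 10.1% of all transcripts), 0 in 0.5M against C (6.53%), 1 in AhR against C (Igfals; 3.77%), 0 in M against 0.5M (6.75%) and 1 in the F test (Igf2; 9.36%). No gene had all 4 arrays of a group above or below all 4 of the group it was set against. Of all transcripts, 2.11% lay wholly above and 2.07% wholly below in M against C, 1.38% and 1.67% in 0.5M against C, 0.981% and 1.02% in AhR against C, and 1.4% each way in M against 0.5M. The 3 treated groups share the C arrays, so their differences from C are not independent.

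**Figure D1:**
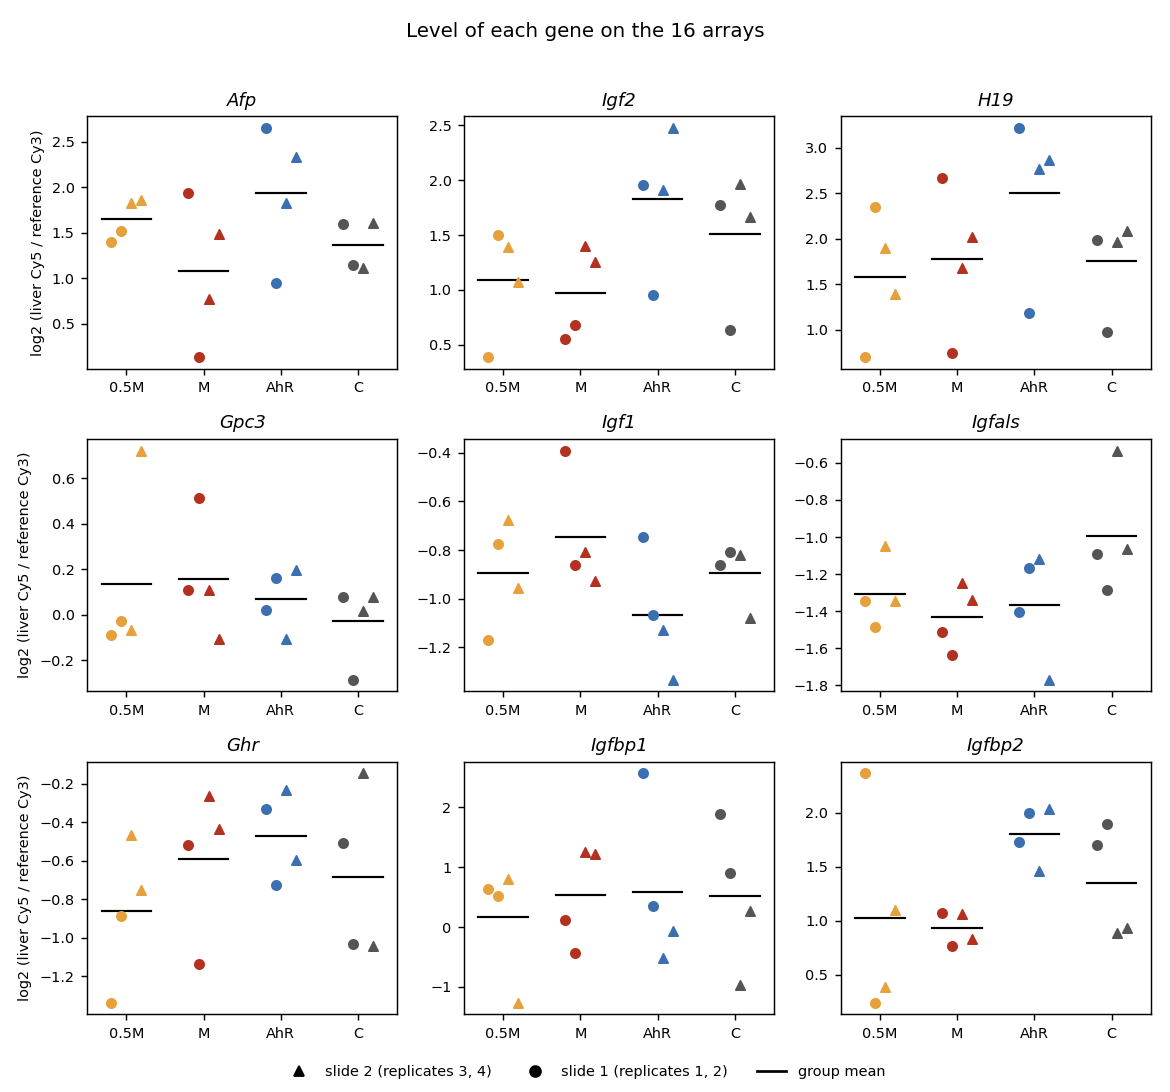
Log2 ratio of liver Cy5 to common Cy3 signal (vertical axis) for the 9 genes that passed the filter, in 0.5M, M, AhR and C, 1 point per array (triangles slide 2, circles slide 1) with the mean of 4 arrays as a line. In every gene the arrays of each treated group overlap those of C, and Igfbp1 runs from -1.26 to 2.57.

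Afp encodes alpha-fetoprotein, the main serum protein of the fetus. Afp (NM_012493) stood at 1.40, 1.51, 1.82 and 1.86 on the 0.5M arrays, at 1.94, 0.13, 0.77 and 1.49 on the M arrays, and at 2.65, 0.95, 1.83 and 2.33 on the AhR arrays. The C arrays had 1.59, 1.15, 1.11 and 1.61. Of the AhR arrays, 3 lay above every C array and AhR 2 below every C array, while M spread over both sides of C. The mean was 1.65 ± 0.23 in 0.5M, 1.08 ± 0.80 in M, 1.94 ± 0.74 in AhR and 1.36 ± 0.27 in C (SD, n = 4 each). In order of these means, AhR, 0.5M, C and M, the arrays of neighbouring groups overlapped. The log2 difference AhR minus C was 0.57 ± 0.35 (SE; 95% confidence interval -0.17 to 1.32; adjusted p = 1.00 by limma), or 1.49-fold. M minus C was -0.28 ± 0.35 (adjusted p = 0.838), and 0.03 without the muscle-bearing arrays M 2 and 0.5M 4. M minus 0.5M was -0.57 ± 0.35 (adjusted p = 0.817), and -0.18 without those arrays. AhR minus C was 0.28 without AhR 1, 0.90 without AhR 2 and 0.83 without the 5 arrays with other tissue.

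H19 is a long noncoding RNA transcribed from the maternal chromosome next to Igf2, and it hosts a microRNA. H19 (NR_027324) had 0.70, 2.35, 1.89 and 1.39 on the 0.5M arrays, 2.67, 0.75, 1.67 and 2.02 on the M arrays, and 3.22, 1.18, 2.76 and 2.86 on the AhR arrays. The 4 C arrays gave 1.99, 0.98, 1.97 and 2.08. Again 3 of 4 AhR arrays were above all of C and the same AhR array, AhR 2, was the low one. Group means were 1.58 ± 0.71 in 0.5M, 1.78 ± 0.80 in M, 2.51 ± 0.90 in AhR and 1.75 ± 0.52 in C (SD, n = 4 each), so that 0.5M, C and M were within 0.19 of each other. AhR minus C was 0.75 ± 0.45 on the log2 scale (SE; interval -0.20 to 1.70; adjusted p = 1.00 by limma). It was 0.79 within slide 2 and 0.72 within slide 1, and ran from 0.43 without AhR 1 to 1.17 without AhR 2 when single arrays were left out. The difference M minus C was 0.02 ± 0.45 (adjusted p = 0.989), with -0.36 to 0.34 when single arrays were left out, and 0.5M minus C was -0.17 ± 0.45 (adjusted p = 0.960).

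Igf2 encodes the fetal growth factor IGF-2 and is read from the paternal chromosome. Igf2 (NM_031511) gave 0.39, 1.50, 1.39 and 1.07 in 0.5M, 0.55, 0.68, 1.40 and 1.25 in M, and 1.96, 0.96, 1.91 and 2.48 in AhR. In C it was 1.78, 0.63, 1.97 and 1.67. Of the C arrays, 3 lay above every M and every 0.5M array, and the lowest C array, C 2, lay among the low ones. The means were 1.09 ± 0.50 in 0.5M, 0.97 ± 0.42 in M, 1.83 ± 0.63 in AhR and 1.51 ± 0.60 in C (SD, n = 4 each). The F test over the groups gave adjusted p = 0.451 (limma). M minus C was -0.54 ± 0.27 (SE; interval -1.11 to 0.03; adjusted p = 0.520), and 0.5M minus C was -0.43 ± 0.27 (adjusted p = 0.791). AhR minus C was 0.31 ± 0.27 (adjusted p = 1.00). None of these changed sign under any alternative, with ranges of -0.75 to -0.34 for M, -0.68 to -0.22 for 0.5M and 0.10 to 0.52 for AhR.

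Gpc3 encodes glypican 3, a surface proteoglycan of fetal liver that binds growth factors. Gpc3 (NM_012774) was dim, and its probe was well above background in Cy5 on 9 of 16 arrays. Its log2 ratios were -0.09, -0.03, -0.07 and 0.72 in 0.5M, 0.11, 0.51, 0.11 and -0.11 in M, 0.02, 0.16, -0.11 and 0.20 in AhR, and 0.08, -0.29, 0.02 and 0.08 in C. The highest values, 0.72 and 0.51, were those of 0.5M 4 and M 2, the arrays with muscle and fibroblast transcripts, and 3 M arrays lay above every C array. The part of those transcripts in the result was not tested. M minus C was 0.19 ± 0.17 (SE, adjusted p = 0.772 by limma) with all arrays and 0.07 without those arrays, and 0.5M minus C was 0.16 ± 0.17 (adjusted p = 0.877) and -0.03. AhR minus C was 0.10 ± 0.17 (adjusted p = 1.00). Without the 5 arrays with other tissue all 3 differences from C were below 0, at -0.12 for 0.5M, -0.05 for M and -0.02 for AhR.

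Dlk1, a surface protein of fetal hepatoblasts from an imprinted locus, was at background level in both channels of all 16 arrays. Its Cy5 signals (NM_053744) were 62.5 to 76.8 scanner units, and no difference is given.

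**Figure D2:**
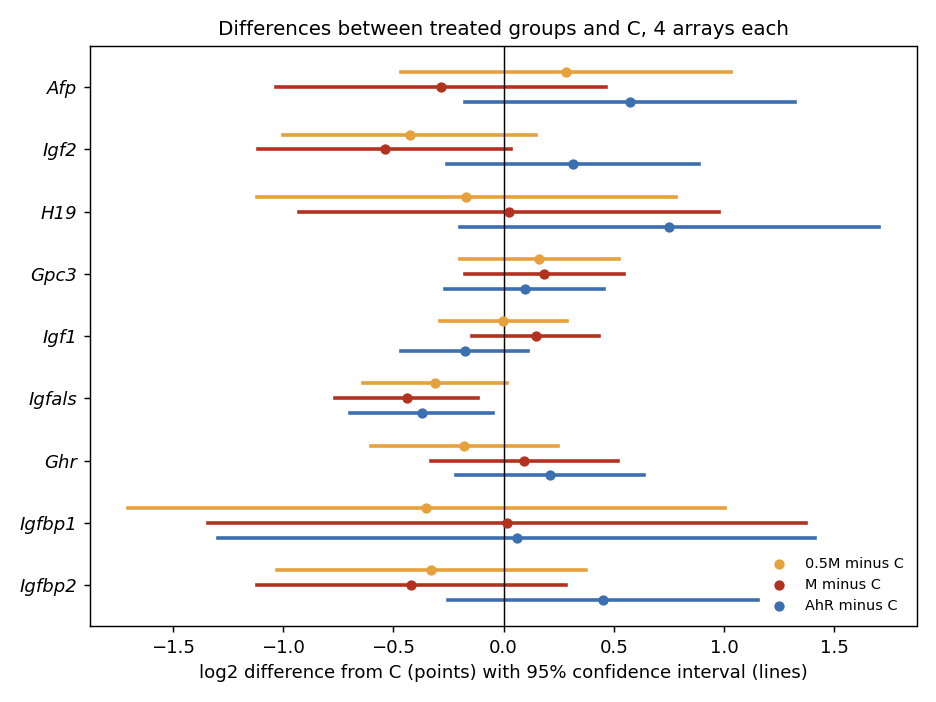
Log2 difference of 0.5M, M and AhR from C (points) with 95% confidence intervals (lines) for the 9 genes, from limma with 4 arrays per group. Intervals lie away from 0 for Igfals in M and AhR before adjustment, and that of Igfbp1 in M runs from -1.34 to 1.37.

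Igfals encodes the acid-labile subunit, made by hepatocytes under growth hormone, which keeps IGF-1 in the circulation. Igfals (NM_053329) had -1.35, -1.48, -1.05 and -1.35 in 0.5M, -1.51, -1.64, -1.25 and -1.34 in M, and -1.41, -1.17, -1.12 and -1.77 in AhR. The C arrays had -1.09, -1.29, -0.53 and -1.06. In 0.5M and in M 3 of 4 arrays lay below every C array, and in AhR 2 of 4, and C 3 was the highest of the 16. Means were -1.31 ± 0.18 in 0.5M, -1.43 ± 0.18 in M, -1.37 ± 0.30 in AhR and -0.99 ± 0.32 in C (SD, n = 4 each), so the 3 treated groups were within 0.13 of each other. M minus C was -0.44 ± 0.15 (SE; interval -0.77 to -0.11; adjusted p = 0.298 by limma), or 0.737-fold. AhR minus C was -0.37 ± 0.15 (adjusted p = 1.00), with -0.65 within slide 2 and -0.10 within slide 1. The 0.5M group minus C was -0.31 ± 0.15 (adjusted p = 0.748). All 3 differences stayed below 0 under every alternative, from -0.68 to -0.31 for M, -0.40 to -0.18 for 0.5M and -0.65 to -0.10 for AhR, and no adjusted p was under 0.190. The weakest values for M and 0.5M were those without C 3, an array that all 3 differences share.

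Igf1 encodes IGF-1, the hormone through which growth hormone drives body growth. Igf1 (NM_178866) stood at -1.17, -0.78, -0.68 and -0.95 in 0.5M, -0.39, -0.86, -0.81 and -0.93 in M, -0.74, -1.07, -1.13 and -1.34 in AhR, and -0.86, -0.81, -0.82 and -1.08 in C. M 1 was the highest array and AhR 4 the lowest, and the groups overlapped throughout. The differences from C were -0.0015 ± 0.14 for 0.5M, 0.15 ± 0.14 for M and -0.18 ± 0.14 for AhR (SE; adjusted p = 1.00, 0.775 and 1.00 by limma). With intervals of -0.29 to 0.29, -0.14 to 0.43 and -0.46 to 0.11, changes beyond 1.35-fold up in M or 0.725-fold down in AhR lay outside them. The other probe (NM_001082479) gave 0.05, -0.07 and -0.19 for the same differences, so the probes differed in sign in M, and they correlated with r = 0.45 over 16 arrays.

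Ghr encodes the growth hormone receptor. Ghr (NM_017094, brightest of 3 probes) had -1.34, -0.89, -0.46 and -0.75 in 0.5M, -0.52, -1.14, -0.26 and -0.43 in M, -0.33, -0.72, -0.23 and -0.60 in AhR, and -0.51, -1.03, -0.14 and -1.05 in C. The highest of the 16 arrays was C 3 and the lowest 0.5M 1, and the groups overlapped. Differences from C were -0.18 ± 0.20 for 0.5M, 0.09 ± 0.20 for M and 0.21 ± 0.20 for AhR (SE; adjusted p = 0.886, 0.913 and 1.00 by limma). Its other probes gave -0.18 and -0.13 for 0.5M, 0.15 and 0.10 for M, and 0.15 and -0.12 for AhR, and pairs of probes correlated with r = 0.37 to 0.93.

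Igfbp1 encodes a binding protein for IGFs that rises within hours of fasting or stress and is repressed by insulin. Igfbp1 (NM_013144) stood at 0.64, 0.51, 0.80 and -1.26 in 0.5M, 0.11, -0.43, 1.25 and 1.22 in M, 2.57, 0.36, -0.52 and -0.07 in AhR, and 1.89, 0.91, -0.97 and 0.27 in C. The full range over the 16 arrays was 3.83 on the log2 scale, or 14.2-fold, and every group held arrays above and below 0. The standard error of a difference was 0.64, and M minus C was 0.02 (interval -1.34 to 1.37; adjusted p = 0.996 by limma). That difference was 1.59 within slide 2 and -1.55 within slide 1. It was 0.47 without M 2 and 0.5M 4, and 1.38 without the 5 arrays with other tissue (adjusted p = 0.414). M minus 0.5M was 0.37 ± 0.64 (adjusted p = 0.964), and 1.67 without the 5 arrays (adjusted p = 0.606). For AhR minus C it was 0.06 ± 0.64 (adjusted p = 1.00), and -0.53 without AhR 1.

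Igfbp2 encodes the main IGF-binding protein of the fetus. Igfbp2 (NM_013122) had 2.37, 0.24, 0.39 and 1.10 in 0.5M, 1.08, 0.76, 1.06 and 0.84 in M, 1.73, 1.99, 1.46 and 2.03 in AhR, and 1.70, 1.90, 0.89 and 0.93 in C. The M values were close together, from 0.76 to 1.08, while 0.5M spanned the whole range. AhR was not tested against M, and the share of all transcripts whose arrays part between those groups was not computed. Means were 1.03 ± 0.97 in 0.5M, 0.93 ± 0.16 in M, 1.80 ± 0.27 in AhR and 1.35 ± 0.52 in C (SD, n = 4 each). AhR minus C was 0.45 ± 0.33 (SE; interval -0.25 to 1.15; adjusted p = 1.00 by limma), with 0.84 within slide 2 and 0.07 within slide 1. M minus C was -0.42 ± 0.33 (adjusted p = 0.728), a value that became -0.04 when the 5 arrays with other tissue were left out. The 0.5M group minus C was -0.33 ± 0.33 (adjusted p = 0.870), with -0.75 without 0.5M 1 and 0.03 without 0.5M 2. The other probe gave 0.59, -0.27 and -0.21 for AhR, M and 0.5M, and the probes correlated with r = 0.97.

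Grouped by role, all 4 measured fetal genes were above C in AhR, with a median log2 difference of 0.44, against 0.00022 over all transcripts. In M and in 0.5M 2 of 4 were above C, with medians of -0.13 and -0.0036 (-0.0020 and -0.0035 over all transcripts). The 4 genes in AhR include the dim Gpc3, whose difference was -0.02 without the 5 arrays with other tissue. For Afp and H19, AhR minus C was 0.28 and 0.43 without the dim array AhR 1, and 0.90 and 1.17 without AhR 2. Of the 5 IGF axis genes, 3 were higher in M (median 0.02), 0 in 0.5M (median -0.31) and 3 in AhR (median 0.06). In 0.5M Igf1 differed by only -0.0015, and by 0.05 with its other probe. Of all 13146 transcripts, 6489 were higher than C in M, 6414 in 0.5M and 6585 in AhR. H19 varied with Afp and Igf2 over the arrays, so the counts do not rest on independent genes. No fetal or IGF axis gene passed the test.

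The arrays of a group differed widely in these genes. Each array held its own pool of 2 pups, so spread between livers and spread between arrays cannot be told apart. The residual SD between arrays, after group and slide were taken out, was 1.07 for Igfbp1, 0.75 for H19, 0.59 for Afp, 0.55 for Igfbp2 and 0.45 for Igf2, against a median of 0.15 over all transcripts. These 5 stood at the 99.8, 99.6, 99.1, 98.9 and 98.0 percentiles of the 13146 transcripts. Ghr (0.32) stood at the 94.8, Gpc3 (0.27) at the 91.2, Igfals (0.24) at the 87.2 and Igf1 (0.21) at the 80.0 percentile. Among transcripts of like brightness, the percentiles were 99.5 for Igfbp1, 99.6 for H19, 98.9 for Afp and 62.4 for Igf1. Without M 2 and 0.5M 4 Gpc3 fell to the 48.8 percentile, while Igfbp1, H19, Afp, Igfbp2 and Igf2 stood at or above the 99.1 percentile. Without the 5 arrays with other tissue these 5 genes stood between the 97.7 and the 99.9 percentile.

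**Figure D3:**
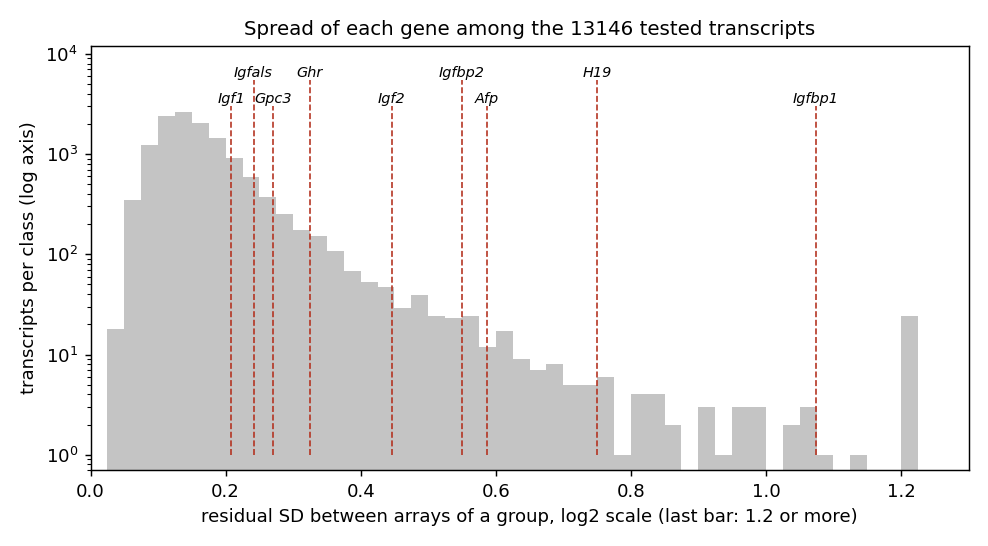
Number of transcripts (log axis) by residual SD between arrays of a group on the log2 scale, with the 9 genes marked by dashed lines. Igf1 lies within the bulk of the transcripts, and Igfbp1 at 1.07 lies far out in the tail.

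Some of the variation was shared between genes. Over the 16 arrays, with each slide's mean taken off, Afp and H19 correlated with Pearson r = 0.76 (Spearman rho 0.70) and Igf2 and H19 with r = 0.72 (rho 0.66). Igf1 ran against Igfbp2, with r = -0.67 (rho -0.68). These are descriptions of 3 of 36 pairs, chosen for their size, and the arrays share a dye layout and the common Cy3 RNA. With the group means also taken off, r was 0.81, 0.69 and -0.55. Within slide 2 and slide 1, r was 0.53 and 0.85 for Afp with H19, 0.84 and 0.68 for Igf2 with H19, and -0.89 and -0.54 for Igf1 with Igfbp2. Without the 2 arrays farthest from the median it was 0.59, 0.54 and -0.61, and without the 5 arrays with other tissue 0.75, 0.86 and -0.75. The dim arrays M 1 and AhR 1, with the highest hepatocyte marker sums, had the highest values of slide 1 for Afp (1.94 and 2.65) and H19 (2.67 and 3.22). Within slide 2, which held neither array, Afp and H19 had the r of 0.53. The part of M 1 and AhR 1 in these correlations was not tested. All values for Igf1 rest on its brightest probe, which correlated with its other probe at only r = 0.45. The relation to Igfbp2 was not computed with that other probe, so it may depend on the probe. Afp and Igf2 were less alike (r = 0.48, rho 0.26). H19 and Ghr had r = 0.61, which was 0.13 within slide 2 and 0.85 within slide 1. Igfbp1 had no correlation with another of these genes beyond r = -0.49, with Gpc3.

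**Figure D4:**
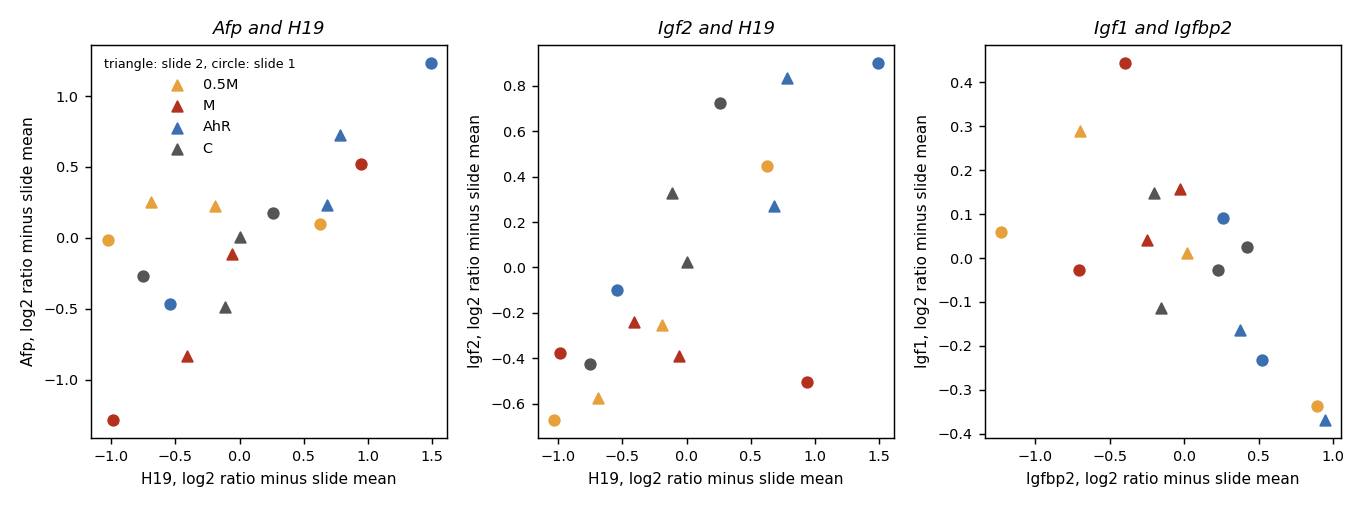
Log2 ratio minus the mean of its slide for Afp against H19, Igf2 against H19 and Igf1 against Igfbp2, 1 point per array (triangles slide 2, circles slide 1, colours by group). The points rise together in the Afp and Igf2 panels (r = 0.76 and 0.72) and fall in the Igf1 panel (r = -0.67, brightest Igf1 probe only).

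Outside these 10 genes, the transcripts most like each gene over the 16 arrays were taken as those with the highest r among the 8562 with a symbol, which makes high values certain. H19 was closest to Rdh8, a retinol dehydrogenase (r = 0.91), and Tmem171 (0.89), and Afp to the keratin gene Krt81 (0.85) and C14h4orf19 (0.84). Igf2 was closest to Magix (0.86) and Pik3r5, a regulatory subunit of phosphoinositide 3-kinase (0.84). Gpc3 followed the fibrillar collagen gene Col3a1 (0.94) and Eef1a2, a translation elongation factor of muscle and neurons (0.92), which became 0.75 and 0.64 without M 2 and 0.5M 4. Igf1 was closest to Tmem19 (0.87) and Tctn2 (0.86), Igfals to Ngef (0.84) and the arginine methyltransferase Prmt5 (0.81), and Ghr to the small GTPase Rhod (0.83) and Vkorc1, which recycles vitamin K (0.82). Igfbp1 was closest to Ap1ar (0.89) and the kinase Cdk10 (0.85), and Igfbp2 to Rc3h2 (0.82) and the cytokine receptor subunit Il6st (0.81).

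Other genes of these pathways were read from 8 lists, and in the comparisons of groups 1 of their genes passed. This was Cyp2c7, a P450 whose level in rat liver follows the growth hormone pattern, in M against C (1.91, adjusted p = 0.000125 by limma) and in M against 0.5M (1.60, adjusted p = 0.00467). Both calls were lost with median centring (1.58 and 1.33) and on either slide alone, and that against 0.5M also without the 5 arrays with other tissue (1.63, adjusted p = 0.224). The other 14 of 15 tested genes with such a pattern passed in no comparison of groups. The list's median was -0.10 in 0.5M, -0.06 in M and -0.07 in AhR against C. Of 14 tested growth hormone signalling genes none passed, and their medians were -0.05, -0.04 and -0.03. None of 6 tested genes of IGF binding, carriage and cleavage passed. Igfbp4, a binding protein, stood at -0.36 in 0.5M, -0.31 in M and -0.02 in AhR (adjusted p = 0.738, 0.496 and 1.00). Igf2r, the receptor that clears IGF-2, stood at 0.20, -0.01 and 0.21.

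Among 14 tested regulators of Afp and of the switch after birth none passed. Foxa3, a forkhead factor of liver, stood at -0.32 in 0.5M, -0.51 in M and 0.10 in AhR (adjusted p = 0.725, 0.120 and 1.00 by limma). None of the 10 tested fetal hepatocyte genes, of 16 imprinted genes or of 7 thyroid hormone-responsive genes passed between groups. Of 14 tested insulin- and fasting-responsive genes none passed either. Cpt1a, the gate of fatty acid oxidation, stood at -0.66 in 0.5M, -0.25 in M and 0.03 in AhR (adjusted p = 0.649, 0.746 and 1.00), and Ddit4, an inhibitor of mTORC1, at 0.18, -0.07 and 0.18.

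The slides held different pups of the same groups, so slide and pups cannot be told apart. Of all transcripts, 8.01% differed between slide 2 and slide 1 (4.82% higher and 3.19% lower), and 0 of the 9 fetal and IGF axis genes did. Igf2 ran from 1.07 to 2.48 on slide 2 and from 0.39 to 1.96 on slide 1, a difference of 0.59 ± 0.19 (SE, adjusted p = 0.0691 by limma). It passed with array weights (0.62, adjusted p = 0.0496), without 0.5M 2 (0.72, adjusted p = 0.0246) and without C 1 (0.69, adjusted p = 0.0395), and stood at 0.24 without the 5 arrays with other tissue (adjusted p = 0.574). Ghr differed by 0.32 ± 0.14 (adjusted p = 0.175), and its other probes by 0.58 and 0.03. Igfbp1 stood at -0.73 ± 0.45 (adjusted p = 0.337) and Igfbp2 at -0.38 ± 0.23 (adjusted p = 0.329).

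Of the 15 tested genes with a growth hormone pattern, 5 were called lower on slide 2 and 0 higher. They were the male-pattern P450 genes Cyp2c11 (-0.68, adjusted p = 0.00867), Cyp2c13 (-0.71, adjusted p = 0.0260) and Cyp2a2 (-0.71, adjusted p = 0.00881), and the urinary protein genes Mup4 (-1.25, adjusted p = 0.00640) and Mup5 (-0.78, adjusted p = 0.0154), by limma. These belong to gene families with near-identical members, so which copy the probes read is uncertain. Cyp2c12, a female-pattern P450, stood at 0.62 (adjusted p = 0.160). With each array centred on its median in place of loess, all transcripts shifted by a median of 0.73 and these 5 genes stood at 0.07 to 0.70, above 0 but below the 1.21 to 1.38 of transcripts of like brightness. There Cyp2c11, Cyp2c13, Cyp2a2 and Mup5 passed in the other direction, as higher on slide 2, where 10285 of 13146 transcripts passed. With the scanner's own ratios none of the 5 passed (-0.86 to -0.43). Without the 5 arrays with other tissue Cyp2a2 and Mup4 passed, while Cyp2c11 (-0.67, adjusted p = 0.0759), Cyp2c13 (-0.73, adjusted p = 0.0670) and Mup5 (-0.80, adjusted p = 0.0905) did not. Cyp2c13 also lost its call without M 3, M 4, AhR 1 or AhR 4 (adjusted p at most 0.0557). Set against the median of transcripts of like brightness, they lay below it under each alternative that tested them, at -0.71 to -0.54 for Cyp2c11 and -1.39 to -0.86 for Mup4. The list's median was -0.30, against 0.02 over all transcripts. Calls of single other genes were less stable, as the 5 below passed in 9 to 13 of 26 alternatives and in none without the 5 arrays. Socs2, a feedback inhibitor of growth hormone signalling, was lower on slide 2 (-0.32, adjusted p = 0.0371; 0.02 with median centring), and the prolactin receptor gene Prlr was higher (0.26, adjusted p = 0.0381). The imprinted gene Mest was higher (0.34, adjusted p = 0.0378), as were Lpl (0.44, adjusted p = 0.0387) and Cd24 (0.25, adjusted p = 0.0445; -0.0014 with the scanner's ratios).

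**Figure D5:**
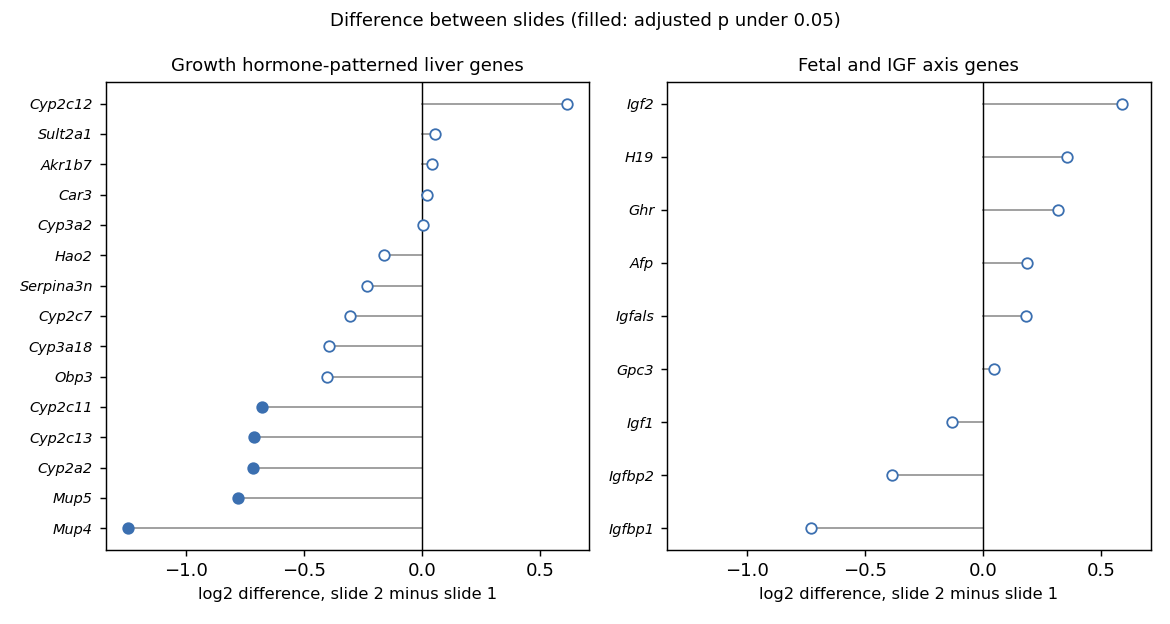
Log2 difference of slide 2 minus slide 1 for the 15 tested genes with a growth hormone pattern and for the 9 fetal and IGF axis genes, with filled points where limma's adjusted p was under 0.05. The 5 filled points, from Cyp2c11 at -0.68 to Mup4 at -1.25, all lie below 0. With median centring the 5 stood at 0.07 to 0.70, which is below the median of transcripts of like brightness (1.21 to 1.38). Cyp2c11, Cyp2c13, Cyp2a2 and Mup5 then passed as higher on slide 2.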

How the data were processed

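Livers of 4 groups were measured on 16 dual-colour arrays. The deposited scan files come from Agilent's Feature Extraction (version 10.7.3.1), per the file headers, and give median signal and background intensity for 62976 spots. In the same files the software's log10 ratio of Cy5 over Cy3 (the scanner's ratio) and quality marks, of the unit other, are given per the file headers. The authors also deposited log2 values in a table, which set against the scans held log2 of Cy5 over Cy3 (correlation of 0.965 to 0.991 with the loess ratios, column medians of -0.0093 to 0.0125). How it was normalized is not given in the sources used here. The plan named scan signals without saying which, and the medians were used.

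Signals were corrected by normexp (offset 50) and loess in limma 3.58.1 (R 4.3.3, data.table version 1.17.8), with control spots given no weight, outlier spots left out and repeated spots averaged. A probe was kept if 4 or more of the 16 arrays marked its Cy5 signal as well above background (14524 of 30367, 12 lost to missing values), and the brightest per gene was used, which left 13146 transcripts. Symbols came through RefSeq numbers (18004 probes named, 12363 not). limma (lmFit, eBayes) fitted a mean per group and a slide term to all arrays, two-sided, with a threshold of 0.05 after Benjamini-Hochberg adjustment. The fit was tested on simulated data. No probe was saturated. Precision is limited by how few arrays there are. Genes and lists were chosen with earlier results of these data known. From each list the genes named are those past the threshold in any comparison, or else the 2 with the smallest p of the F test. Some genes that this rule picks are not reported here. Alternatives were other normalizations, filters, probe rules, slide or replicate terms, arrays left out and array weights.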

Additional observations from a re-analysis of the deposited data

Results flagged for a closer look

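Dixon's test for 1 array apart from the other 3 was run on 40 sets of 4 arrays (10 genes in 4 groups), and 4 were beyond the 95% critical value. Chance flags about 1 in 20 groups. H19 on C 2 (0.98) lay below the other C arrays, with a gap of 0.898 of the range. Gpc3 on 0.5M 4 (0.72) lay above the other 0.5M arrays by 0.928 of the range, and Igfbp1 on the same array (-1.26) lay below them by 0.86 of the range. Gpc3 on C 2 (-0.29) lay below the other C arrays by 0.831 of the range, but its Cy5 signal was not well above background on C 2 or C 1, so this value reads a signal at the floor. The array 0.5M 4 is one of those with skeletal muscle transcripts, whose part in these values was not tested.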

How the results depend on the processing

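None of the 36 differences between groups for the 9 genes passed under any alternative (lowest adjusted p 0.190), 16 kept their sign under all and 20 changed it under at least 1. The 42 transcripts called in M against C became 1 with median centring, 20 with the scanner's ratios, 4 on slide 1 alone and 7 on slide 2 alone, and 22 to 50 without single arrays. In 0.5M against C, 2 became 0 with median centring (110 at an unadjusted p under 0.05) and 1 on slide 1 alone, with 2 to 3 without single arrays. In AhR against C, 1 became 0 with median centring (57 unadjusted) and 0 on slide 1 alone (368 unadjusted), and 1 without any single array. In M against 0.5M, 2 became 0 with median centring (56 unadjusted), 0 on slide 1 alone (641 unadjusted), 4 on slide 2 alone, 1 with the filter on all arrays, 4 without the 5 arrays with other tissue, 4 with array weights and 2 to 4 without single arrays. The F test's 23 became 0 with median centring (115 unadjusted), 15 with the scanner's ratios, 1 on slide 1 alone, 7 on slide 2 alone, 15 without the 5 arrays and 11 to 30 without single arrays. The 1053 between slides became 10285 with median centring, 119 with the scanner's ratios, 36 without the 5 arrays and 509 to 1096 without single arrays. All tests are limma's, and the cause was not tested, except that fewer arrays enter when a slide or array is left out.

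With the replicate number as a block, counts were 41 for M and 3 for 0.5M against C, 1 for AhR against C, 7 for M against 0.5M and 22 by the F test. The numbers were not shown to pair the arrays beyond the slide. Same-numbered arrays correlated from -0.23 to 0.46 (median 0.19) in their deviations from group means. Arrays of other numbers on the same slide correlated from -0.22 to 0.47 (median 0.12). With the slide's mean taken off these medians were 0.0021 and -0.13, and 4 of 24 and 3 of 24 pairs were over 0.1. Of pairs on different slides, 18 of 48 were then over 0.1. With the slide's mean left in, 9 of 16 arrays correlated best with an array of their own number. Arrays of a slide resembled each other, so this count cannot tell pairing by number from a shared slide. With median centring Afp (1.71), Ghr (1.58), H19 (1.91), Igf2 (1.80) and Igfals (1.46) passed between slides, and Igf1 turned to 1.41 (adjusted p = 0.00106), where transcripts of its brightness had a median of 1.38. Dim Cy5 signals limit Gpc3 and Dlk1 most. On the dim array M 1, Cy5 was also low for Igfbp1 (118), Igfals (146), Igf2 (181) and Ghr (192.5). Backgrounds there were 62.5 to 64.5, and the software still marked these signals as well above background.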

Other observations

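The common Cy3 RNA of cell lines also held transcripts of the growth hormone axis. Igf1, Igfals and Ghr were well above background in Cy3 on all 16 arrays, with Igf1 at 87700 to 147962 scanner units. The log2 ratios of the brightest probe were below 0 on every array, from -1.34 to -0.39 for Igf1, -1.77 to -0.53 for Igfals and -1.34 to -0.14 for Ghr. Another Ghr probe ran from -1.15 to 0.21. Afp, Igf2 and H19 were above 0 on every array, with lowest values of 0.13, 0.39 and 0.70. These ratios are after loess. In raw signal Cy5 was below Cy3 for Afp, Igf2 and H19 on every slide 1 array and above it on every slide 2 array. H19 on 0.5M 1, for example, had 38896 in Cy5 and 66755 in Cy3.

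Of the cell type markers, 1 of 11 tested stellate cell and fibroblast genes (Pdgfra, 0.29), 2 of 6 biliary and progenitor genes (Cd24, 0.25, and Prom1, 0.34) and 1 of 9 Kupffer cell genes (Vsig4, -0.37) were called by limma between slide 2 and slide 1, where 8.01% of all transcripts were. The medians of these lists were 0.02, 0.03 and -0.15. None of the 4 genes passed without the 5 arrays with other tissue.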
